A study of Rattus norvegicus with 20 samples.

Results

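Oesophageal tissue of rats given a low dose of STW5 around reflux surgery was compared with that of sham-operated rats, to see how completely operated, treated tissue matched sham and what stayed apart. The comparison takes 8 of the 20 arrays of the study, 4 labelled STW5 0.5 ml/kg and 4 labelled sham, chosen by their titles and read from the scanner output. Every animal was a Wistar rat, and each array holds total RNA of the excised oesophagus, so epithelium, muscle, vessels and any leukocytes were measured together. In such bulk RNA, fewer cells of a type and less RNA per cell cannot be told apart. The low-dose rats had surgically induced reflux oesophagitis and received STW5 for 7 days before and 10 days after the operation. The sham rats had a sham operation, and no drug is named for them. The 3 other groups, used only for side-by-side values, were operated rats with no drug (untreated), with STW5 at 2 ml/kg (high dose) and with omeprazole at 30 mg/kg. Age, sex and the kind of operation are not given in the labels, and no group of sham rats given STW5 is among the samples, so surgery and drug differ together between the compared groups.

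STW5 is a herbal medicine, a liquid mixture of plant extracts taken against functional dyspepsia and related gut complaints. Reflux oesophagitis is an inflammation of the oesophageal wall caused by stomach contents, in which leukocytes enter, the stratified squamous epithelium loses its outer differentiated layers, and basal cells multiply. The rat oesophagus is lined by a keratinised squamous epithelium, and unlike the human organ its outer muscle is striated along its whole length, with smooth muscle mainly in the mucosal layer and in vessels. Defining markers of that make-up were present in both groups: the suprabasal keratin genes Krt13 and Krt4, the basal keratin gene Krt5 and the muscle creatine kinase gene Ckm were well above background on all 8 arrays. Values are log2 of the background-subtracted spot signal minus the 75th percentile of the array, so 0 is the level of a bright gene and -7 lies near background. Krt13 measured 8.40, 8.52 and 7.63 in the low-dose samples, against 8.31, 7.78, 7.90 and 7.16 in the sham arrays, and Ckm 8.15, 7.68 and 8.39 against 8.35, 7.58, 8.23 and 8.21. Both genes overlapped between the groups.

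Some features of the arrays bear on every result. Low-dose replicates 1 and 2 were near identical. Over 3401 bright probes, the differences between these arrays spread 1.13 times as much as repeat spots of the same probe do within an array, while the other pairs within a group had ratios of at least 2.46. They were averaged and counted as 1 sample, so the low-dose group has n = 3 and the sham group n = 4. Low-dose values are given in the order mean of replicates 1 and 2, replicate 3, replicate 4, and sham values in the order of replicates 1 to 4. The dose itself is not settled. In the deposited value table, each of the 8 STW5 columns carries values measured on an array of the opposite dose, the 12 other columns match their own scanner array, and the series text and the sample titles number the STW5 groups in opposite order. Doses are named here as the scanner files are labelled, and under the assignment of the value table the arrays called low-dose would be those given 2 ml/kg. The low-dose and untreated arrays shared slide 2, and slide 1 held only sham arrays. Slide and group therefore cannot be told apart in any comparison with sham. All high-dose and omeprazole arrays were on slide 3, so the same holds for low dose against high dose or omeprazole. Between 61.5% and 64.3% of features were well above background on low-dose arrays, against 62.7% to 66.8% on sham arrays, and no feature was saturated. The series text gives 4 animals and 4 tissue arrays per group, and each array was taken as 1 animal, apart from the near-identical pair.

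The arrays within each group also differed widely. Pairs of a low-dose and a sham array had spread ratios of 3.08 to 10.96 (median 5.72), and pairs of sham arrays 4.36 to 8.63 (median 6.82). Pairs of an untreated and a sham array ran from 3.77 to 13.2 (median 9.21). The closest low-dose and sham pair, low-dose replicate 4 and sham replicate 3, was closer to each other than any 2 sham arrays. Sham replicate 2 stood apart by its inflammatory transcripts and lay at a ratio of 2.11 from omeprazole replicate 2, the closest pair of arrays from different groups. Sham replicate 4 stood apart by its scores for stomach-type epithelium, fat and mast cell genes. The score of a list is the mean over its genes of the log2 value minus the sham mean. That of 14 gastric and columnar epithelium genes was 2.07 in sham replicate 4, against -1.02, 0.03 and -1.07 in sham replicates 1 to 3, and that of 12 adipocyte genes was 1.90 against -1.07, -0.21 and -0.61. Where leaving out a sample moved the median of a list far, the value without it is given beside that median.

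**Figure D1:**
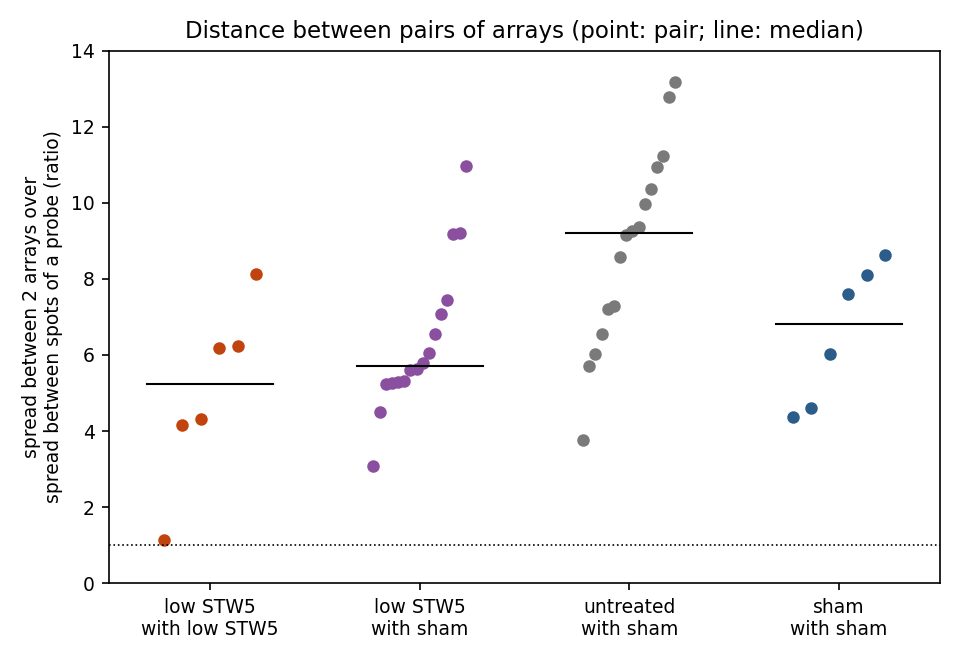
Spread of the differences between 2 arrays as a ratio to the spread of repeat spots within an array, for pairs of low-dose STW5 arrays, low-dose with sham, untreated with sham, and pairs of sham arrays. Each point is a pair and each line a median; the lowest point, at 1.13, is low-dose replicates 1 and 2, the low-dose with sham pairs have a median of 5.72, the untreated with sham pairs of 9.21 and the sham pairs of 6.82.

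Of 13616 genes tested by limma with Benjamini-Hochberg adjustment, 1 was higher in low-dose tissue than in sham tissue at an adjusted p under 0.05 and 0 were lower, 0.00734% of genes in all. At an unadjusted p under 0.05 there were 1081 genes, 7.94% of those tested, with 602 higher and 479 lower. In the same fit, 4482 genes (32.9%) changed in untreated oesophagitis against sham, 1165 (8.56%) with the high dose and 215 (1.58%) with omeprazole. With the high dose 6.06% of genes rose and 2.5% fell, and with omeprazole 1.56% rose and 0.0147% fell. These comparisons share the sham arrays. Low-dose tissue differed from untreated oesophagitis at 5119 genes, 37.6%, of which 2958 were higher and 2161 lower in low-dose tissue. Against the high dose it differed at 24.0% of genes (13.2% higher, 1460 genes lower), and against omeprazole at 2.41% (0.617% higher, 1.79% lower).

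A p that misses the threshold does not show that values match, so closeness was also counted from the 95% confidence interval. For 8724 genes, 64.1%, the whole interval of the low-dose minus sham difference lay within a 2-fold change in either direction. The same count was 6977 genes (51.2%) in untreated tissue, 8126 (59.7%) with the high dose and 9230 (67.8%) with omeprazole. The median SE of a difference was 0.26 on the log2 scale. Differences of over 2-fold in the group means were found at 467 genes, 3.43%, and the median difference over all genes was 0.07. All low-dose samples lay above all sham arrays at 543 genes (3.99%) and below all of them at 211 (1.55%).

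The samples contributed unequally to these counts. The share of genes more than 2-fold from the sham mean was 10.6% for the mean of low-dose replicates 1 and 2, 12.2% for replicate 3 and 4.04% for replicate 4. Each sham array set against the mean of the 3 others gave 12.4%, 9.20%, 3.88% and 10.3%. The ranges of these shares overlapped, although the means they refer to were taken over 4 and over 3 sham arrays. The median over genes of the SD within a group was 0.318 for low-dose samples and 0.343 for sham arrays. Without low-dose replicate 4, 27 genes were higher and 64 lower at the same threshold, and leaving out any other sample gave 0 to 3 calls.

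**Figure D2:**
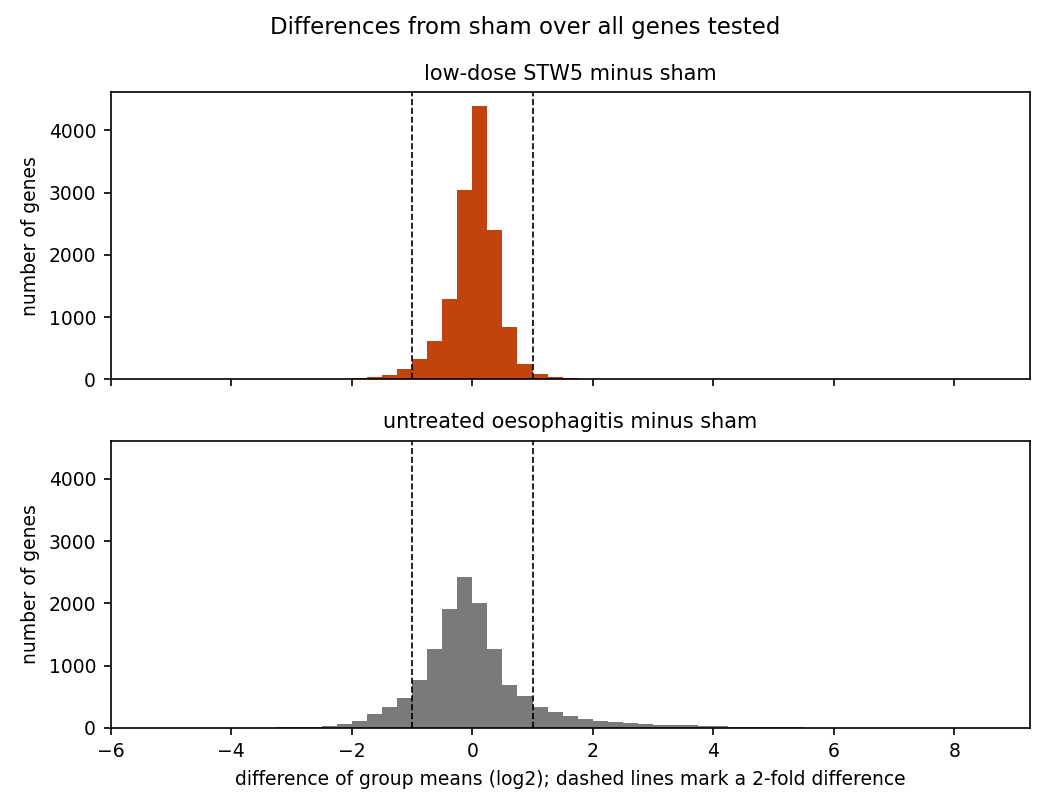
Number of genes by log2 difference from the sham mean for low-dose STW5 (above) and untreated oesophagitis (below), over the same 13616 genes and with the same scale; dashed lines mark a 2-fold difference. The low-dose differences lie mostly between the lines, with 467 genes beyond them, while 51.2% of the untreated intervals and 64.1% of the low-dose ones lie within 2-fold.

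The one gene called was C8h3orf62, a gene on chromosome 8 of the GRCr8 assembly, 117958583 to 117963137, named here because it was the only call. It measured -4.04, -3.42 and -3.46 in the low-dose samples, against -4.93, -4.84, -4.54 and -5.00 in the sham arrays. Every low-dose sample lay above every sham array. The difference was 1.19 ± 0.18 on the log2 scale (SE, n = 3 and 4, limma adjusted p = 0.0479). The gene was higher against the same sham arrays in the other operated groups too, by 0.86 in untreated oesophagitis (adjusted p = 0.00119), 1.16 with the high dose (adjusted p = 0.000289) and 0.95 with omeprazole (adjusted p = 0.00252). Low-dose and untreated tissue differed by 0.33 (adjusted p = 0.14). The call was lost when sham replicate 1, 2 or 4 or low-dose replicate 3 was left out. It was also lost with other processing: with normexp background correction the difference was 0.57 (adjusted p = 0.603), and in a fit of the low-dose and sham arrays alone it was 1.19 (adjusted p = 0.79). Median scaling, quantile normalization, no filter on dim probes and all 20 arrays as 20 samples gave adjusted p values of 0.0924, 0.113, 0.0808 and 0.0549. Without sham replicate 2 the single gene called was Per2 (1.73, adjusted p = 0.0353).

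Per2, a negative limb gene of the circadian clock that also responds to glucocorticoids, had the smallest p among other genes with an established symbol. It measured -2.57, -3.31 and -3.70 in the low-dose samples, against -5.01, -3.93, -4.86 and -4.89 in the sham arrays. The groups did not overlap, and sham replicate 2 was the highest sham array. The difference was 1.479 ± 0.27 (SE, n = 3 and 4, adjusted p = 0.168), and it passed the threshold without low-dose replicate 4 (1.73, adjusted p = 0.0204). In untreated tissue Per2 was 1.203 higher than in sham (adjusted p = 0.00221) and with the high dose 1.80 higher (adjusted p = 0.000289). Of 18 clock genes measured, 0 were called against sham, 2 were higher and 0 were lower at an unadjusted p under 0.05, with a median of 0.23, or 0.09 to 0.30 with 1 sample left out. Among all genes, 4.42% were higher at that level and 3.52% lower. Tef, a clock-controlled transcription factor gene, stood at 0.64 ± 0.27 (adjusted p = 0.61), Cry2, which encodes a repressor of the clock, at 0.39 ± 0.22 (adjusted p = 0.66), and Npas2, a partner of Bmal1, at -0.82 ± 0.50 by one probe and 0.15 by the other.

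The bases before the start of 2 genes are shown, the one gene called and the slow muscle gene Tnnt1 described next. They come from RefSeq on GRCr8, run 5′ to 3′ toward the gene and end at the base before its start. Capitals mark matches on either strand to the E′-box CACGTT, a clock motif, and the antioxidant response motif TGACNNNGC.
C8h3orf62, chr8:117958333-117958582, plus strand: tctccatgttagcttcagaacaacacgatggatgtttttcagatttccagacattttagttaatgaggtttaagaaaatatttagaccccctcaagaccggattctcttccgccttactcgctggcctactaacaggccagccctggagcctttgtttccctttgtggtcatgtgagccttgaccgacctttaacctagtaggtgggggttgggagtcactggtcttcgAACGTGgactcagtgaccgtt
Tnnt1, chr1:78348785-78349034, plus strand: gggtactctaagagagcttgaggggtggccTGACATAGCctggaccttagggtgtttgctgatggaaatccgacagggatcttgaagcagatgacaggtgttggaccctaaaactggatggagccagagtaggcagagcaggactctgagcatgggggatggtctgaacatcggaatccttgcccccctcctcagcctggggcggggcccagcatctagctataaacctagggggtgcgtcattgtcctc
The E′-box was found in C8h3orf62, 21 bases before the start, and the antioxidant motif in Tnnt1. Over 33469 promoters of the same length, 4.07% hold the E′-box and 10.1% the antioxidant motif. The E-box CACGTG and the xenobiotic response core GCGTG were searched as well and found in neither window. Of the same promoters, 5.59% hold the E-box and 25.9% the xenobiotic response core. A match is a description of the letters in the window.

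Slow muscle genes held some of the largest differences in size, none of them past the adjusted threshold. Tnnt1, the troponin T gene of slow striated fibres, measured 6.74, 6.67 and 5.42 in the low-dose samples, against 3.63, 3.36, 2.97 and 5.56 in the sham arrays. Sham replicate 4 lay just above low-dose replicate 4, and the other values were apart. The difference was 2.40 ± 0.56 (SE, adjusted p = 0.39), and both probes of the gene gave values between 2.40 and 2.48. Tnnc1, the troponin C gene of slow and cardiac muscle, measured 4.13, 3.87 and 2.91, against 2.19, 0.53, 0.76 and 2.88 in sham, with no overlap and a difference of 2.04 ± 0.55 (adjusted p = 0.40). Against omeprazole both genes were higher in low-dose tissue, Tnnt1 by 3.01 (adjusted p = 0.0059) and Tnnc1 by 2.85 (adjusted p = 0.00782). Against the high dose they differed by -0.12 (adjusted p = 0.891) and -0.06 (adjusted p = 0.942). Without low-dose replicate 4 the Tnnt1 difference from sham was 2.82 (adjusted p = 0.0487).

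Other slow-fibre genes varied far more within the low-dose group. Myh7, the slow myosin heavy chain gene, measured -1.23, 2.08 and -3.25 in the low-dose samples, against -3.24, -3.20, -3.56 and -2.00 in the sham arrays. Myl2, the slow and ventricular myosin light chain gene, measured -1.83, 0.56 and -6.83, against -5.96, -7.18, -6.92 and -3.11 in sham. Low-dose replicate 3 was the highest sample of both genes and low-dose replicate 4 among the lowest. Fast-fibre and shared muscle genes lay nearer to sham. Myh2, the fast oxidative myosin gene, stood at -0.41 ± 0.47, Myh4, the fast glycolytic one, at 0.19 ± 0.38 and Acta1, the skeletal muscle actin gene, at -0.04 ± 0.43. Actn3, the actinin gene of fast fibres, stood at -0.64 ± 0.40 (adjusted p = 0.67), the lowest difference among the striated fibre genes. Its interval was not within 2-fold. Of 37 measured striated fibre genes, 17 lay within 2-fold of sham, where 64.1% of all genes did. None of the 37 was called, and 3 were higher and 0 lower at an unadjusted p below 0.05. In untreated oesophagitis 16 of them had fallen and 3 had risen against sham, where 17.9% of all genes fell and 15.0% rose. In low-dose against untreated tissue 12 were higher and 1 lower, where 21.7% of all genes were higher and 15.9% lower.

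Among stretch and regeneration genes of muscle, the values of Ankrd1 and Ankrd2 lay above most sham arrays. Ankrd1, the gene of an ankyrin repeat protein induced in strained muscle, measured -2.11, -2.41 and -2.88 in the low-dose samples, against -7.31, -2.97, -6.64 and -6.46 in the sham arrays. The groups did not overlap, although sham replicate 2, the only sham array on which the gene was well above background, came close. The difference was 3.38 ± 1.08 (adjusted p = 0.52), a size that rests on 3 sham values near background, and low-dose minus untreated was -3.04 (adjusted p = 0.036). Ankrd2, its relative in striated muscle, measured -1.86, -1.09 and -0.86, against -5.24, -1.64, -5.13 and -4.36 in sham, a difference of 2.82 ± 1.15 (adjusted p = 0.61). It stood at -3.91 from untreated tissue (adjusted p = 0.014). The embryonic acetylcholine receptor subunit gene Chrng stood at 1.64 ± 0.79 and the receptor delta subunit gene Chrnd at 1.01 ± 0.40 (adjusted p = 0.63 and 0.61), with overlap in both. Of 29 genes in this list, 3 were higher and 0 lower at an unadjusted p below 0.05, and the median was -0.13, or -0.16 to 0.08 with 1 sample left out. Mss51, a regulator of muscle mitochondria that was 3.59 higher in low-dose than in untreated tissue (adjusted p = 0.00018), stood at -0.25 ± 0.47 from sham.

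**Figure D3:**
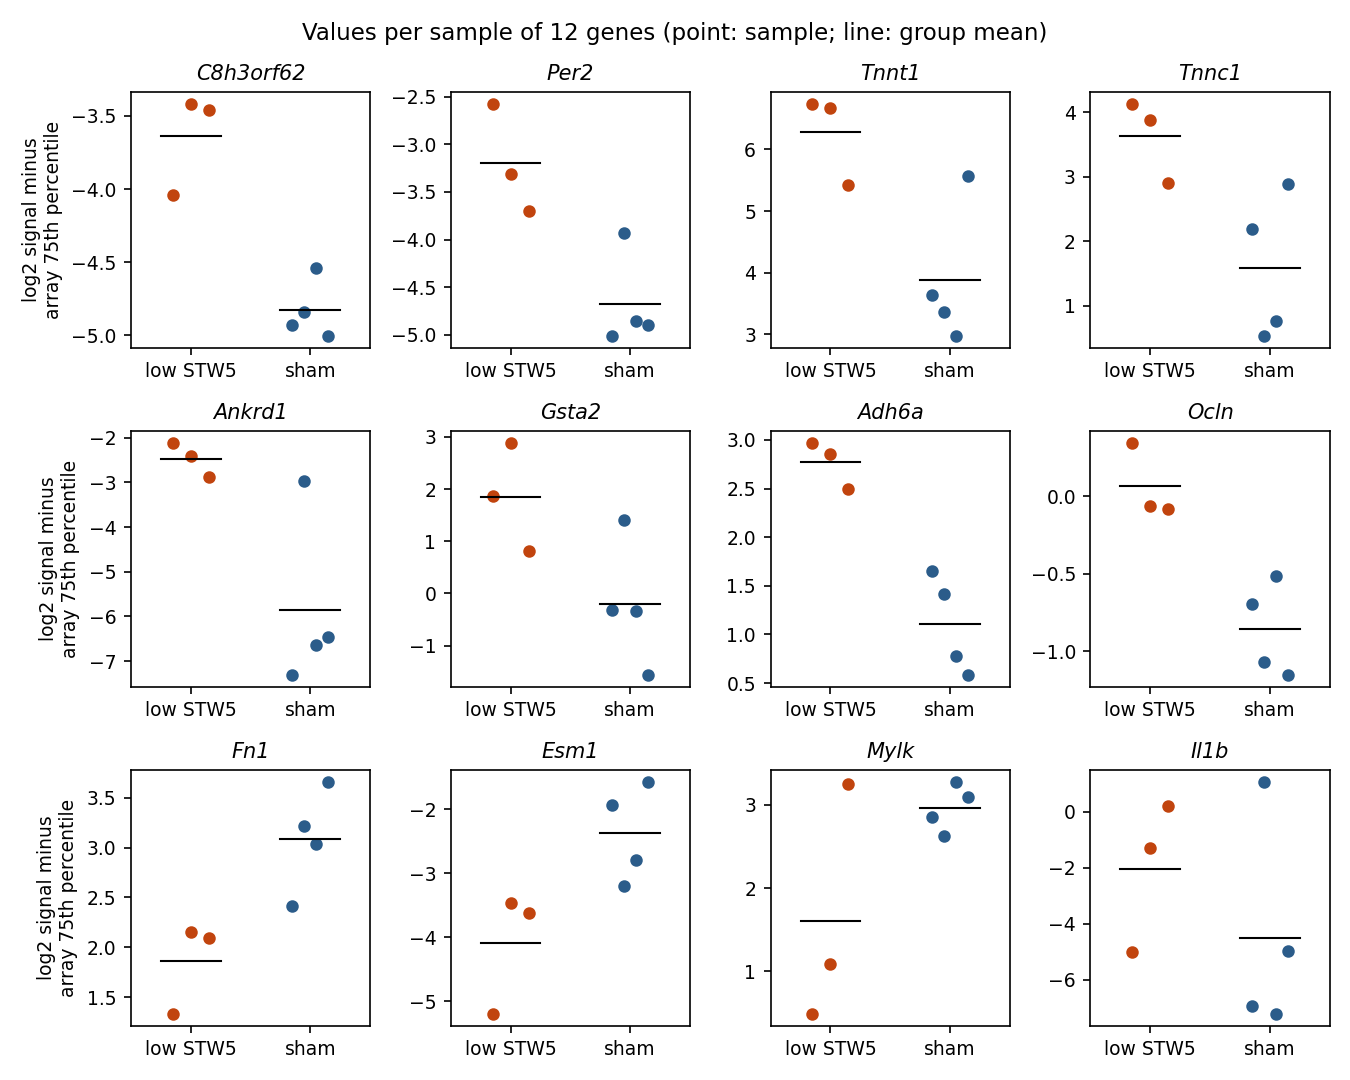
Values of 12 genes in each low-dose STW5 sample (left, n = 3) and sham array (right, n = 4), as log2 signal minus the 75th percentile of the array, with each panel on its own scale and lines at the group means. Groups do not overlap for C8h3orf62, Per2, Tnnc1, Ankrd1, Adh6a, Ocln, Fn1 and Esm1; in Il1b the low-dose samples lie inside the wider sham range, and in Mylk low-dose replicate 4 lies among the sham arrays.

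Oxidative phosphorylation was the group of genes closest to sham. All 34 measured subunit genes lay within 2-fold of sham by their intervals, where 64.1% of all genes did, and their differences ran from -0.20 to 0.25. In untreated tissue 18 of the 34 had fallen against sham, where 17.9% of all genes fell, with a median of -0.53. Ndufa4, a subunit gene of cytochrome oxidase, measured 6.27, 6.24 and 6.23 in the low-dose samples, against 6.25, 5.73, 5.96 and 6.03 in the sham arrays. It was 0.86 higher in low-dose than in untreated tissue (adjusted p = 0.0038). Cox5b, another oxidase subunit gene, stood at 0.22 ± 0.21 from sham and Sdhc, of succinate dehydrogenase, at -0.20 ± 0.21. The median SE of the list was 0.21, against 0.26 over all genes, so its intervals were also narrower than most. Of 37 fatty acid and ketone genes, 20 lay within 2-fold, where 64.1% of all genes did. Of the same 37, 4 were higher and 0 lower at an unadjusted p below 0.05. Acot1, a cytosolic acyl-CoA thioesterase gene, measured 1.11, 1.14 and 2.47 in the low-dose samples, against 0.73, 0.74, 0.01 and -0.38 in the sham arrays. These values did not overlap (1.30 ± 0.47, adjusted p = 0.58). The carnitine shuttle gene Slc25a20 stood at 0.52 ± 0.17 (adjusted p = 0.52), also without overlap.

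**Figure D4:**
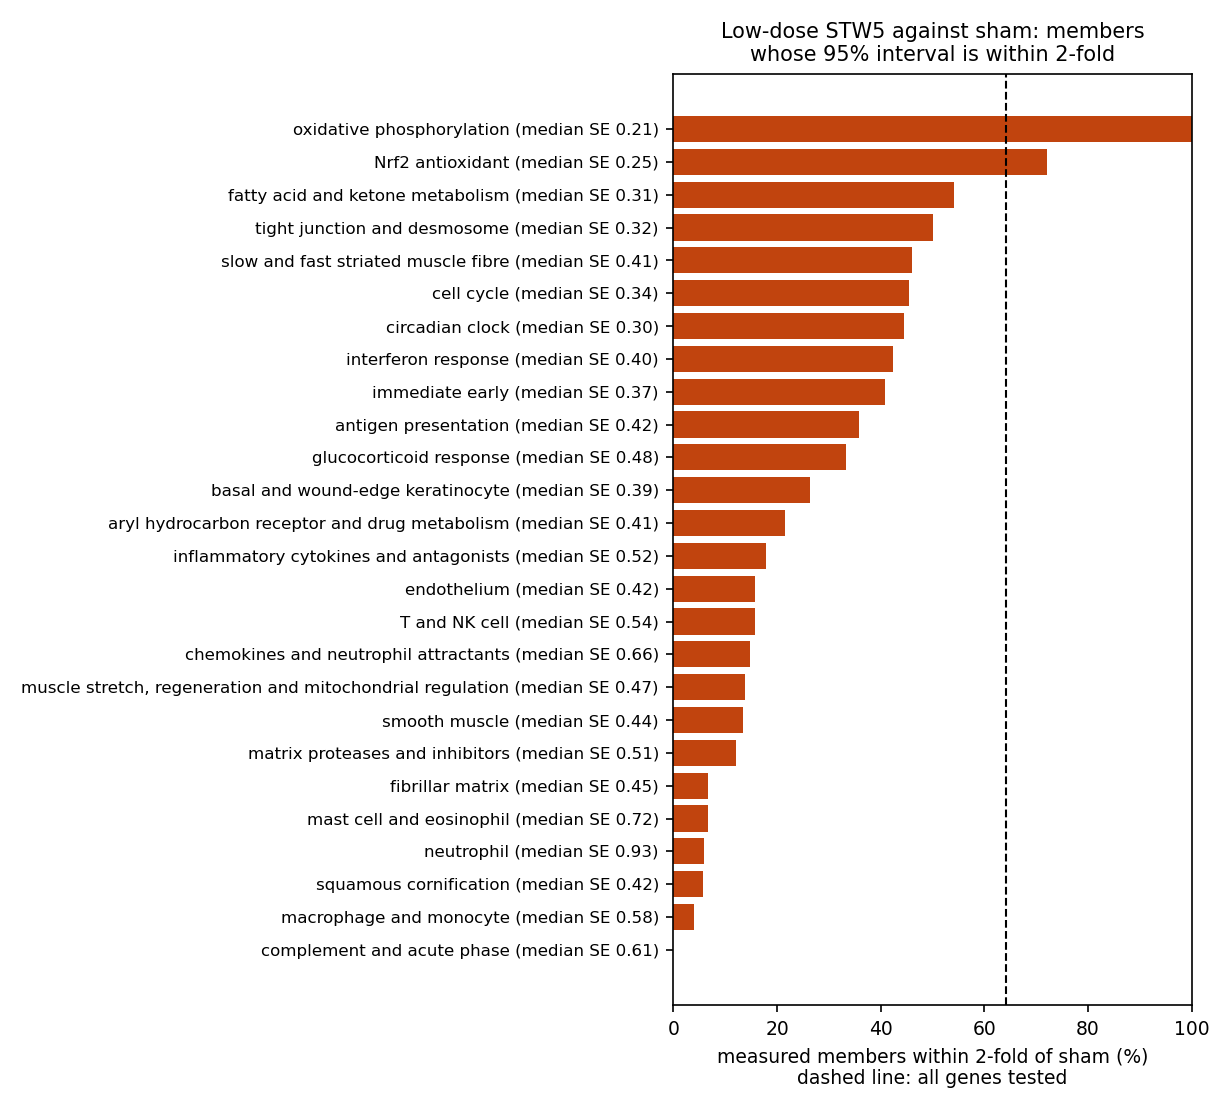
Share of the measured members of each described list whose 95% interval of the low-dose minus sham difference lies within 2-fold, in percent, with the median standard error (log2) of the list beside its name. Oxidative phosphorylation is at 100% and complement and acute phase genes at 0%, against 64.1% over all genes (dashed line); their median standard errors are 0.21 and 0.61.

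Differentiation genes of the squamous epithelium mostly had small positive differences. Of 35 cornification genes, 31 had a positive difference, where 8047 of all 13616 genes did. The median was 0.50, against 0.07 over all genes. None was called, and 1 was higher and 0 lower at an unadjusted p below 0.05. Within 2-fold lay 2 of the 35, where 64.1% of all genes did. In untreated tissue 26 of the 35 had fallen against sham, where 17.9% of all genes fell. In low-dose against untreated tissue 30 were higher, where 21.7% of all genes were. Krt4, a suprabasal keratin gene of the oesophagus, measured 8.18, 8.38 and 7.75 in the low-dose samples, against 8.07, 7.83, 7.87 and 6.48 in the sham arrays. Sprr3, a cornified envelope gene, measured 8.03, 8.07 and 7.48, against 7.85, 7.26, 7.33 and 6.58 in sham (0.61 ± 0.33, adjusted p = 0.65). In both genes sham replicate 4 was the lowest array, and the groups otherwise ran together. The transcription factor gene Ovol1, which promotes epidermal differentiation, did not overlap (0.67 ± 0.29, adjusted p = 0.61). Flg, which encodes the keratin-binding protein filaggrin, measured -0.50, -0.87 and -6.16 in the low-dose samples, against 0.42, -0.84, -0.75 and -1.50 in the sham arrays. The difference was -1.84 by this probe and -0.82 by the other. Low-dose replicate 4 alone was low, and the score of the whole list was -0.32 in that sample, against 0.55 and 0.86 in the other low-dose samples and -0.70 to 0.61 in sham. Without low-dose replicate 4 the median of the list was 0.79 and 15 members were higher at an unadjusted p under 0.05. Without low-dose replicate 3 or sham replicate 4 the median was 0.26 and 0 members were higher at that level.

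Junction genes lay closer to sham than cornification genes, though fewer of them than of all genes were within 2-fold. Of 24 tight junction and desmosome genes, 12 were within 2-fold of sham, where 64.1% of all genes were. Their median SE was 0.32, against 0.26 over all genes. A positive difference was found at 21, where 8047 of all 13616 genes had one. The median was 0.24, or 0.08 without sham replicate 4 and 0.47 without low-dose replicate 4. Ocln, which encodes the tight junction protein occludin, measured 0.34, -0.06 and -0.08 in the low-dose samples, against -0.69, -1.07, -0.51 and -1.15 in the sham arrays. The groups did not overlap, with a difference of 0.92 ± 0.27 (adjusted p = 0.51), and it was 1.82 higher than in untreated tissue (adjusted p = 0.00028). The scaffold gene Tjp3 stood at 0.49 ± 0.28 from sham (adjusted p = 0.66). Basal and wound-edge keratinocyte genes had a median of 0.03, which lay between -0.22 and 0.17 with 1 sample left out, with 0 of 19 at an unadjusted p under 0.05 in either direction. Krt14, a basal keratin gene, measured 6.05, 6.14 and 5.28 in the low-dose samples, against 5.14, 7.49, 5.62 and 5.03 in the sham arrays. Sham replicate 2 was the highest of all 7 values, and the list's score was 1.22 in that array, against -0.56 to 0.43 in the low-dose samples. Cell cycle genes had a median of -0.29, with 3 of 33 lower and 0 higher at an unadjusted p under 0.05. Without low-dose replicate 3 the median was -0.001, without sham replicate 2 -0.07 and without low-dose replicates 1 and 2 -0.53. Bub1b, a spindle checkpoint gene, measured -3.46, -5.05 and -3.79 in the low-dose samples, all below the sham range of -3.22 to -2.80 (adjusted p = 0.59).

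Many inflammatory genes were lower than in untreated oesophagitis, and few had an interval within 2-fold of sham. Il1b, which encodes interleukin 1 beta, measured -5.02, -1.31 and 0.20 in the low-dose samples, against -6.94, 1.08, -7.22 and -4.97 in the sham arrays. Cxcl2, which encodes a neutrophil-attracting chemokine, measured -7.44, -2.92 and 2.15, against -7.22, 0.72, -7.17 and -2.32 in sham. Low-dose replicate 4 and sham replicate 2 were the high samples of both genes, each far above the lowest sample of its own group, and the ranges overlapped. Il1b, Cxcl2, Cxcl3, Camp, Lcn2, S100a9, Flg, Cyp1a1, Mss51 and Myl2 were singled out after their values were seen. The Il1b difference was 2.47 ± 1.75 (adjusted p = 0.705), with an interval from -1.23 to 6.17, and the Cxcl2 difference was 1.26 ± 2.39 (adjusted p = 0.895). Both were lower than in untreated tissue, by log2 differences of -5.46 and -7.39 (adjusted p = 0.022 and 0.023). Lcn2, whose protein withholds iron from bacteria, measured -4.45, -1.99 and 1.23, against -3.24, 0.36, -2.90 and -1.60 in sham.

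Of 27 chemokine genes, 2 were higher and 1 lower than sham at an unadjusted p under 0.05, 4 lay within 2-fold, and 18 were lower than in untreated tissue. Among all genes 4.42% were higher and 3.52% lower than sham at that level, 64.1% lay within 2-fold, and 15.9% were lower than in untreated tissue. Among the 3 chemokine genes at that level, Ccl22, a gene of dendritic cells and macrophages, stood at 1.28 ± 0.58. Cxcl13, the B cell chemokine gene, measured -4.87, -3.13 and -0.54 in the low-dose samples, against -1.81, -0.21, -0.15 and 0.21 in the sham arrays (-2.36 ± 0.84, adjusted p = 0.58). Ccl4, a macrophage chemokine gene, was well above background on 1 of 4 low-dose arrays and on no sham array. It measured -6.62, -6.65 and -4.86 in the low-dose samples. Its bound of 1.47-fold higher (adjusted p = 0.61) thus rests mostly on low-dose values near background. Of 28 cytokine and antagonist genes, 0 were higher and 2 lower at an unadjusted p below 0.05, where 4.42% and 3.52% of all genes were. Il1rn, the gene of the interleukin 1 receptor antagonist, measured 3.85, 3.85 and 3.71, above the sham range of 3.03 to 3.68 (0.44 ± 0.30, adjusted p = 0.70). Il15, a cytokine gene that sustains lymphocytes, was not well above background on any low-dose array and at least 1.82-fold lower (adjusted p = 0.59).

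Leukocyte markers overlapped widely as well. The score of 25 macrophage and monocyte genes was -1.05, 0.29 and 0.56 in the low-dose samples, against -0.997, 1.10, -0.57 and 0.47 in the sham arrays, and 3.30 as the mean of the untreated arrays. The score of 17 neutrophil genes was -1.03, 0.51 and 1.13, against -1.05, 1.77, -1.07 and 0.35 in sham and 4.14 in untreated. The mean of low-dose replicates 1 and 2 lay just below the sham range for macrophage genes, and the other low-dose scores lay inside it in both lists. Of the macrophage genes, 24 of 25 were lower in low-dose than in untreated tissue, where 15.9% of all genes were lower. Against sham, 0 were higher and 1 was lower at an unadjusted p under 0.05. That gene was Mrc1, the macrophage mannose receptor gene (-0.89 ± 0.38, adjusted p = 0.61), which was well above background on 1 of 4 low-dose and 3 of 4 sham arrays. The neutrophil alarmin gene S100a9 measured -4.40, 2.94 and 1.46 in the low-dose samples, against -4.07, 4.49, -4.35 and -3.25 in the sham arrays. Of 19 T and NK cell genes, 1 was higher than sham and 0 lower at that level. Against untreated tissue 10 were lower and 1 higher, where 15.9% of all genes were lower and 21.7% higher. Klrk1, the gene of an activating receptor of NK cells, stood at 0.43 ± 0.17 without overlap by one probe and at 0.09 by the other.

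Mast cell and eosinophil genes were the leukocyte list with the lowest median, -1.09 over 15 genes, of which 0 were called and 4 were lower at an unadjusted p under 0.05. The median was -0.68 without sham replicate 4 and -0.48 without low-dose replicates 1 and 2, with 1 gene lower at that level in each, and -1.61 without sham replicate 1. With normexp background correction it was -0.14. Kit, the stem cell factor receptor gene of mast cells and interstitial cells, was not well above background on any low-dose array (adjusted p = 0.51). With low-dose values below the background floor raised to it, Kit was 2.26-fold lower by the group means. Cma1, the chymase gene, measured -3.38, -1.96 and -0.03 in the low-dose samples, against -0.85, -1.19, 0.23 and 2.06 in the sham arrays, a difference of -1.85 ± 0.76 (adjusted p = 0.61). The mean of low-dose replicates 1 and 2 was the lowest and sham replicate 4 the highest, and low-dose replicate 4 lay inside the sham range. The list's score was -2.02, -1.08 and 0.09, against -0.99, -0.55, -0.03 and 1.57 in sham. Cpa3, the mast cell carboxypeptidase gene, was likewise lowest in the mean of low-dose replicates 1 and 2 and highest in sham replicate 4 (-1.94 ± 0.83, adjusted p = 0.61).

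A few genes far from untreated tissue lay within 2-fold of sham by rule, the rule being the largest distance from untreated among such genes. Lgmn, the lysosomal protease gene legumain, measured -0.45, -0.01 and -0.07 in the low-dose samples, against -0.20, 0.59, -0.21 and -0.13 in the sham arrays, and stood at -2.82 from untreated tissue (adjusted p = 0.00018). Mgp, the gene of a calcification inhibitor of the matrix, measured 4.61, 4.30 and 5.70, against 3.89, 5.58, 4.79 and 5.36 in sham, and stood at -2.84 from untreated tissue (adjusted p = 0.00026). Coro1a, an actin-binding protein gene of leukocytes, stood at -0.03 ± 0.45 from sham and Ptpn18, a phosphatase gene, at -0.02 ± 0.43. Snx20, a sorting nexin gene of leukocytes, stood at 0.03 ± 0.40. Tlr7, the gene of a receptor for single-stranded RNA, was not well above background on any low-dose or sham array and averaged -4.22 in untreated tissue.

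Complement and acute phase genes had a median of -0.43 over 23 genes, with 1 lower and 0 higher at an unadjusted p under 0.05 and 0 within 2-fold. C1r, a protease gene of the classical complement pathway, measured -0.55, 0.41 and 1.65 in the low-dose samples, against 0.07, 1.81, 1.82 and 2.62 in the sham arrays (-1.07 ± 0.49, adjusted p = 0.62). The mean of low-dose replicates 1 and 2 was the lowest value and the others overlapped. The median of the list was -0.97 without sham replicate 1 and 0.15 without low-dose replicates 1 and 2. The 14 antigen presentation genes had a median of -0.19, with 0 at an unadjusted p under 0.05 in either direction. Against untreated tissue 12 of the 14 were lower, where 15.9% of all genes were. Their median lay between -0.43 without sham replicate 1 and 0.09 without sham replicate 2. RT1-DMb, a class II peptide loading gene, stood at -0.31 ± 0.40 from sham and at -3.06 from untreated tissue (adjusted p = 0.00018). Of 26 interferon response genes, 2 were lower and 0 higher than sham at that level. Rsad2, the antiviral gene viperin, measured -6.89, -4.64 and -2.46, against -3.70, -2.11, -2.48 and -1.14 in sham, a difference of -2.31 ± 0.74 (adjusted p = 0.52).

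Matrix, smooth muscle and vessel genes had the most members lower at an unadjusted p under 0.05, though none passed the adjusted threshold. Of 30 fibrillar matrix genes, 11 were lower and 0 higher at an unadjusted p under 0.05, where 3.52% of all genes were lower, and the median was -0.58. Fn1, which encodes the matrix protein fibronectin, measured 1.33, 2.15 and 2.09 in the low-dose samples, against 2.42, 3.21, 3.03 and 3.66 in the sham arrays. The groups did not overlap, and the difference was -1.22 ± 0.32 (adjusted p = 0.40), with -0.59 by the other probe. Col5a3, a fibrillar collagen gene, stood at -1.49 ± 0.53, Loxl2, a collagen cross-linking enzyme gene, at -1.38 ± 0.45 and Fbn1, the microfibril gene fibrillin 1, at -1.23 ± 0.41 (adjusted p = 0.58, 0.52 and 0.52). In each of these, sham replicate 1 overlapped the low-dose samples. The score of the list was -0.76, -0.46 and -0.41 in the low-dose samples, against -0.95, 0.55, 0.03 and 0.37 in the sham arrays, so sham replicate 1 was the lowest of all. Without sham replicate 1 the median was -0.92, and without low-dose replicates 1 and 2 only 3 members were lower at an unadjusted p under 0.05. Matrix proteases and inhibitors had a median of -0.29, with 1 of 25 lower at an unadjusted p under 0.05, the aggrecanase gene Adamts5 (-0.80 ± 0.38). That median turned to 0.06 without sham replicate 2, was -0.56 without sham replicate 1, and was -0.01 with normexp background correction.

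Of 15 smooth muscle genes, 7 were lower and 0 higher at an unadjusted p under 0.05, and the median was -0.62. Mylk, the myosin light chain kinase gene, measured 0.49, 1.09 and 3.25 in the low-dose samples, against 2.85, 2.62, 3.28 and 3.098 in the sham arrays. Low-dose replicate 4 sat among the sham arrays and the other low-dose samples well below them. The difference was -1.36 ± 0.48 (adjusted p = 0.58), and -2.18 without low-dose replicate 4 (adjusted p = 0.0204). Cnn1, the calponin gene of contractile smooth muscle, measured -4.26, -2.51 and -1.89, against -1.17, -1.23, -1.49 and -1.89 in sham (-1.44 ± 0.57, adjusted p = 0.61). Tagln, the transgelin gene, measured 0.74, 1.99 and 2.45, below the sham range of 2.66 to 2.88 (adjusted p = 0.58). The list's score was -1.24, -1.01 and 0.13, against -0.32 to 0.12 in sham, and without low-dose replicates 1 and 2 the median was -0.48 and 0 members were lower at an unadjusted p under 0.05. Without low-dose replicate 4 the median was -1.03 and 9 were lower, and without low-dose replicate 3 it was -0.35 and 2 were lower. With normexp background correction it was -0.38 and 6 were lower. Myh11, the smooth muscle myosin gene, was lower than sham in untreated tissue as well (-1.92, adjusted p = 0.00234), and low-dose and untreated tissue differed by 0.84 (adjusted p = 0.14). Genes of nerve and glia had a score of -1.30, -0.61 and 0.59, against -0.40 to 0.33 in sham. Their part in the smooth muscle values was not tested.

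Of 19 endothelial genes, 18 had a negative difference, where 5569 of all 13616 genes did. At an unadjusted p under 0.05, 5 were lower, and the median was -0.68. Without low-dose replicates 1 and 2 the median was -0.27 and 1 gene was lower at that level, and without sham replicate 4 it was -0.46 with 2 lower. With normexp background correction it was -0.41 with 3 lower. In 5 of the 19 all low-dose samples lay below all sham arrays, where 1.55% of all genes did. Esm1, a gene of vessel tip cells, measured -5.20, -3.47 and -3.62 in the low-dose samples, against -1.93, -3.20, -2.79 and -1.57 in the sham arrays, a difference of -1.72 ± 0.52 (adjusted p = 0.52). Kdr, the vascular endothelial growth factor receptor gene, measured 0.59, 1.01 and 1.09, against 1.15, 1.43, 1.47 and 2.26 in sham (-0.68 ± 0.26, adjusted p = 0.58). Cldn5, the claudin gene of endothelial junctions, stood at -1.08 ± 0.41 (adjusted p = 0.59), also without overlap. In the high-dose arrays Esm1 was nearer to sham, and low-dose tissue was lower, by -2.06 on the log2 scale (adjusted p = 0.0118). Fn1 and Kdr were likewise lower with the low than with the high dose, by -1.43 and -1.10 on the log2 scale (adjusted p = 0.00653 and 0.00815). Erythrocyte genes, which report blood left in the tissue, had a score of -2.78, -1.44 and 0.56 in the low-dose samples, against -0.74, -1.07, 0.53 and 1.29 in the sham arrays. Their part in the endothelial values was not tested.

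**Figure D5:**
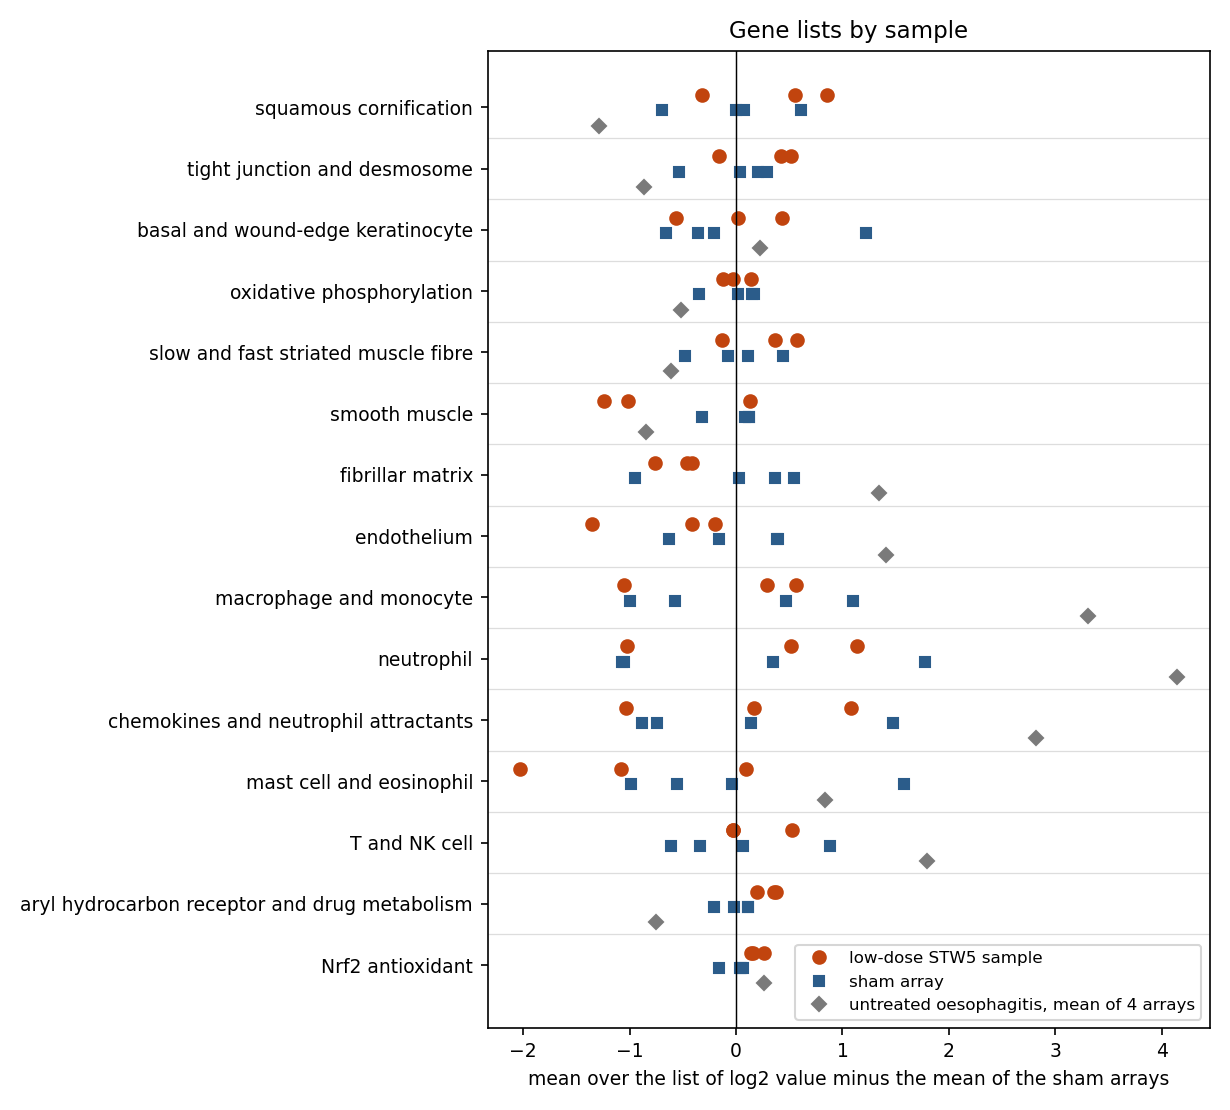
Score of 15 gene lists in each low-dose STW5 sample (circles, n = 3) and sham array (squares, n = 4), with the mean of the untreated arrays (diamonds); the score is the mean over the list of the log2 value minus the sham mean. Low-dose samples and sham arrays overlap in 13 of the lists, and all low-dose samples lie above all sham arrays in the drug metabolism list and the Nrf2 list, by small distances.

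Genes of drug metabolism and antioxidant defence were the only 2 of the 38 lists whose scores did not overlap between the groups. At single genes, all low-dose samples lay above all sham arrays in 3.99% of all genes and below them in 1.55%. Whether 2 of 38 lists exceeds that share was not tested. The drug metabolism score was 0.35, 0.20 and 0.38 in the low-dose samples, against -0.02, 0.11, 0.12 and -0.21 in the sham arrays, with a mean of -0.75 in untreated tissue. The Nrf2 score was 0.26, 0.14 and 0.16, against 0.07, 0.04, 0.05 and -0.16 in sham. Of 28 drug metabolism genes, 6 were higher and 0 lower at an unadjusted p below 0.05, where 4.42% of all genes were higher. Of the same 28, 18 had a positive and 10 a negative difference, where 8047 of all 13616 genes had a positive one. Gsta2, an alpha class glutathione transferase gene, measured 1.86, 2.89 and 0.82, against -0.32, 1.41, -0.33 and -1.56 in sham. Sham replicate 2 lay above low-dose replicate 4, and the difference was 2.06 ± 0.60 (adjusted p = 0.50). Its relatives Gsta5 and Gsta4 stood at 1.503 ± 0.48 and 0.59 ± 0.24 (adjusted p = 0.52 and 0.61). Close relatives of this gene family may share probe signal.

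Adh6a, an alcohol dehydrogenase gene, measured 2.97, 2.86 and 2.49 in the low-dose samples, against 1.66, 1.42, 0.77 and 0.58 in the sham arrays. The groups did not overlap, and the difference was 1.67 ± 0.53 (adjusted p = 0.52). It was higher with the low dose than in untreated tissue by 3.24 (adjusted p = 0.0004) and than with the high dose by 1.78 (adjusted p = 0.0242). Cyp1a1, a drug-metabolising oxidase gene induced through the aryl hydrocarbon receptor, measured -2.75, -4.43 and -6.65, against -6.66, -3.44, -7.62 and -7.55 in sham. The low-dose samples were well spread and overlapped sham (1.71 ± 0.90, adjusted p = 0.65). With omeprazole, which is known to induce this gene, it was 3.86 higher than in sham (adjusted p = 0.0187), and low-dose tissue stood at -2.16 from omeprazole (adjusted p = 0.189). Of 25 Nrf2 genes, 18 lay within 2-fold of sham, where 64.1% of all genes did. Of the same 25, 3 were higher and 0 lower at an unadjusted p below 0.05. Blvrb, the biliverdin reductase B gene, stood at 0.47 ± 0.16 (adjusted p = 0.55) without overlap.

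Immediate early genes gave differences in both directions, and most glucocorticoid-responsive genes had small positive ones. Nr4a3, an orphan nuclear receptor gene, measured -4.17, -5.03 and -4.54 in the low-dose samples, against -2.91, -3.30, -3.72 and -2.81 in the sham arrays, a difference of -1.40 ± 0.38 without overlap (adjusted p = 0.41). Egr2, a zinc finger transcription factor gene, measured -4.15, -4.63 and -4.75, against -5.46, -4.94, -5.76 and -5.18 in sham, a difference of 0.82 ± 0.27 in the other direction (adjusted p = 0.52). It was 1.83 higher than sham in untreated tissue (adjusted p = 0.0002). The immediate early list had a median of 0.18 (0.03 to 0.28 with 1 sample left out), with 1 of 22 higher and 1 lower at an unadjusted p below 0.05. Fkbp5, which encodes a co-chaperone of the glucocorticoid receptor, measured -0.82, -1.95 and -0.82, against -3.21, -1.52, -2.75 and -1.99 in sham (1.17 ± 0.48, adjusted p = 0.61). Of 15 glucocorticoid-responsive genes, 2 were higher and 0 lower at that level. A positive difference was found at 13 of the 15, where 8047 of all 13616 genes had one. The median of the list was 0.20 (0.12 to 0.34 with 1 sample left out).

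The 12 remaining lists held 157 measured genes, of which 0 were called, 12 were higher and 7 lower at an unadjusted p below 0.05, and 57 lay within 2-fold. Among all genes 4.42% were higher and 3.52% lower at that level, and 64.1% lay within 2-fold, a larger share than in these lists. The medians of the 12 lists ran from -1.31 for erythrocyte genes (-2.24 to -0.44 with 1 sample left out) to 0.30 for B and plasma cell genes (0.11 to 0.35). Over all 38 lists, 781 of 940 listed genes were measured and 0 were called. The 10 genes with an established symbol and the smallest p, other than the one called, were added after the values were seen. With Per2 they were Serpini1, which encodes neuroserpin (-1.17 ± 0.22, adjusted p = 0.168), Rpap1, of an RNA polymerase II associated protein (-1.06 ± 0.21, adjusted p = 0.168), the transcription factor gene Atoh7 (1.08 ± 0.21, adjusted p = 0.168), Eddm3b (0.80 ± 0.16), the beta-galactosidase-like gene Glb1l (-1.27 ± 0.27), Aknad1 (1.16 ± 0.26), the olfactory receptor genes Or6b13 (1.12 ± 0.21) and Or4g16, and the neuronal membrane gene Slitrk3. Or4g16 was not well above background on any sham array, and Slitrk3 was not well above background on any low-dose array. With values of the dim group below the background floor raised to it, Or4g16 was 2.09-fold higher and Slitrk3 2.59-fold lower by the group means.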

How the data were processed

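Agilent Feature Extraction 10.7.3.1 gave a background-subtracted, detrended intensity per spot, per the file headers; the authors deposited it unscaled between arrays. The value table the authors deposited holds a ratio to each array's median and served as an alternative; what was done to it otherwise is not given in the sources used here. Probe names and flags in the deposited files (other columns) were used to match 30367 probes, 18349 of them by accession, to GRCr8 genes; 7153 had none. Control and outlier-flagged spots were left out, spots of a probe averaged on the log2 scale, and the 75th percentile of the array subtracted. Probes entered the fit where 4 or more of the 20 arrays had 50% or more of the spots flagged above background, and the brightest stood for its gene (19915 probes, 13616 genes). All groups were fitted in limma 3.58.1 (R 4.3.3), two-sided, over 19 samples with 14 residual degrees of freedom. Where a group was nowhere well above background, its values below the floor of the array were raised to it for the fold. The floor is the lowest signal on the array of a probe well above background. Such a fold is a bound for dim values only, not a limit of the confidence interval. Python 3.11.15, pandas 2.3.3, numpy 2.4.6 and matplotlib 3.10.9 made the summaries. The script was tested on simulated data.

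Named genes are up to 4 members of smallest p per described list, the tissue markers, the 6 genes farthest from untreated among those within 2-fold of sham, and genes singled out after their values were seen. The rule for called genes added none, and some genes the rules named are not reported here. Samples, lists and genes were chosen with earlier results of these data known. With 3 samples against 4, the median SE of a log2 difference was 0.26, and the number of arrays limits the precision. Alternatives changed the samples, background, scaling, filter and probe rule. Replicate numbers were not taken as pairs: deviations from the group means of same-numbered low-dose and sham arrays correlated at 0.31, -0.053, -0.299 and 0.577.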

Additional observations from a re-analysis of the deposited data

Results flagged for a closer look

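Among 143 named genes, 9 had a sham array whose gap to the others exceeded Dixon's 95% limit for 4 samples. Chance gives this in about 1 in 20 groups, and 6 of the 9 concern sham replicate 2. The low-dose group counts 3 samples and could not be examined this way. Sham replicate 2 was the high array for the neutrophil and chemokine genes Cxcl3 (2.65), S100a9 (4.49) and Camp (-4.09), for Lgmn (0.59) and for Per2 (-3.93), and the low one for Slitrk3 (-6.13). Sham replicate 4 was the low array for the keratin gene Krt4 (6.48) and the glutathione transferase gene Gsta4 (4.06), and sham replicate 1 for Eddm3b (-3.05). What sets these arrays apart was not tested.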

How the results depend on the processing

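The number of genes called against sham, 1 (1 higher, 0 lower), was small under most settings and large under a pair of them. It was 0 with all 20 arrays as 20 samples, with only the low-dose and sham arrays fitted, with normexp background, with median scaling, with quantile normalization and without a filter on dim probes. Genes at an unadjusted p under 0.05 then numbered 1939, 653, 1062, 1033, 998 and 1512. With the replicate number as a block over all 20 arrays, which do not pair by design, 5 genes were called, 5 higher and 0 lower. Array weights gave 2588 calls, 1499 higher and 1089 lower, with a weight of 8.9 for sham replicate 3 against 0.348 to 1.63 in the low-dose samples. The deposited value table gave 1166, 824 higher and 342 lower, and by its construction sets the scanner arrays of the other dose against sham. Leaving out 1 sample gave 0 to 91 calls, 0 to 27 higher and 0 to 64 lower, the highest without low-dose replicate 4. The count within 2-fold was 6981 to 8860 then, and kept within 1.5 times of its value under every other setting listed here. At an unadjusted p the split of higher and lower genes was 855 and 207 with normexp background and 430 and 568 with quantile normalization. With the value table the authors deposited, 15 named genes had the opposite sign past the threshold: B2m (1.18), C1s (2.29), Csf1r (1.26), Ctsk (2.30), Ctss (1.92), Esam (1.31), Il16 (0.90), Il34 (1.07), Lgmn (1.18), Mgp (2.31), Mrc1 (1.89), Ptpn18 (1.82) and RT1-DMb (1.51) upward, and Krt1 (-1.95) and Tjp3 (-0.97) downward. List medians under each setting were an alternative chosen after seeing the data. Signals not well above background in a whole group limit Tlr7, Kit, Il15, Ccl4, Or4g16 and Slitrk3.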
